A study of Mus musculus with 2 samples.

Results

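MHC class I presentation was followed through 10 genes in RNA-seq counts from mouse splenic γδ T cells: the heavy chains H2-K1, H2-D1 and H2-T23, the light chain B2m, the loading and trimming genes Tap1, Tap2, Tapbp, Tapbpl and Erap1, and the regulator Nlrc5. The genes were chosen by symbol from the known pathway, and 10 of the 24091 rows of the count table matched. All 10 had a mean of at least 1 CPM (a count scaled to a library of 1000000 counts) over both libraries and so belong to the 11715 genes compared. The study holds 2 libraries, 1 labelled IL-2 expanded (GDT_plus_IL2) and 1 labelled freshly isolated (GDT_minus_IL2), both of total RNA from γδ T cells of the spleen. The expanded cells had been sorted, activated with anti-CD3 bound to the plate and anti-CD28 in solution, and grown with recombinant mouse IL-2 at 100 U/ml for 5 days. The protocol fields are worded alike for both libraries and speak of culture in both, so the fresh library is taken as uncultured from its treatment label alone. The labels give no strain, age or number of mice. Receptor stimulation, IL-2 and time in culture differ together between the libraries and cannot be told apart. The design asks which transcripts differ between γδ T cells after expansion and before it.

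MHC class I molecules carry short peptides from inside the cell to its surface, where CD8 T cells and receptors of natural killer (NK) cells read them. The proteasome cuts proteins into peptides, the transporter of Tap1 and Tap2 carries them into the endoplasmic reticulum, Erap1 trims them, and tapasin and its relatives load them onto a heavy chain paired with β2-microglobulin. Lymphocytes carry high levels of class I, and the transactivator Nlrc5 and interferon signals control transcription of much of the pathway.

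With 1 library per group there is no spread between samples, so no test between the groups was made. Folds are ratios of CPM after TMM scaling, with exact 95% intervals that cover counting error only. In counts of genes, higher and lower mean at least 2-fold by the log2 fold. The expanded library held 22204099 counts and the fresh library 20379385. Cd3e, Cd3g and Cd3d had similar CPM in both libraries, with Cd3e at 688 CPM in expanded and 734 CPM in fresh cells. Of 6 γδ T and CD3 markers 0 were higher and 2 lower, against 22.4% higher and 25.0% lower over all compared genes. The 2 lower were Sox13, with 3 counts in expanded and 909 in fresh cells, and Blk, with 2 counts in expanded and 1508 in fresh cells. The listed constant genes of the γδ receptor chains matched no row of the count table by symbol, so they could not be compared. Summed markers of B cells, macrophages and dendritic cells were far lower in expanded cells. Each of the 10 compared markers of B and plasma cells was lower in expanded cells. Markers under 1 CPM in expanded cells entered the comparison only through the fresh library, so their call as lower was close to fixed. That holds for most of the B cell, macrophage, dendritic cell, αβ T cell, erythroid and platelet markers, and for Sox13 and Blk. The sums take in every listed marker with a row, compared or not. Summed B and plasma cell markers stood at 4.04 CPM in expanded and 944 CPM in fresh cells, with 7 of 12 at 0 counts in the expanded library. Of 14 macrophage and monocyte markers 13 were lower, with 21.03 CPM in expanded and 1064 CPM in fresh cells, and 9 of the 14, Vcam1, Sirpa and Lyz2 among them, were at 0 counts in the expanded library. Of 9 compared dendritic cell and class II markers 8 were lower, with 26.7 CPM in expanded and 1397 CPM in fresh cells. All 6 compared erythroid and platelet markers were lower, as were 3 of 5 αβ T cell markers (1 higher) and 5 of 8 NK cell markers (2 higher). The αβ and NK counts of higher genes lie near the 22.4% over all compared genes. Unlike the sums above, the NK sum was higher, at 14942 CPM in expanded and 1006 CPM in fresh cells. Gzma made up most of it, at 12635 CPM in expanded and 8.78 CPM in fresh cells, and Eomes was level. The other cells of the spleen also carry class I, and their part in the class I differences was not tested. In bulk RNA, fewer cells of a type and less RNA per cell cannot be told apart.

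Heavy chain transcripts were lower in expanded cells, while the peptide transporter and the light chain differed little. H2-K1 and Tapbpl were at least 2-fold lower, H2-D1 and H2-T23 came close to 2-fold, Nlrc5 was 1.71-fold lower, and Erap1 alone had a higher CPM in expanded cells. Thus 2 of the 10 genes were at least 2-fold lower, against 25.0% of all compared genes, and 0 of 10 were at least 2-fold higher, against 22.4%. At 4-fold none of the 10 was lower, against 13.5% of compared genes, and none higher, against 8.92%. The median log2 fold was -0.57 over the 10 genes and 0.04 over all compared genes. The sign was negative for 9 of the 10 genes and positive for Erap1 under TMM, total count, DESeq2 size factors, upper quartile and a total without the 50 most abundant genes. Total count scaling moved the median of all genes to -0.12 and put 4 of the 10 genes at least 2-fold lower, against 27.8% of compared genes, with H2-D1 and H2-T23 added.

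**Figure D1:**
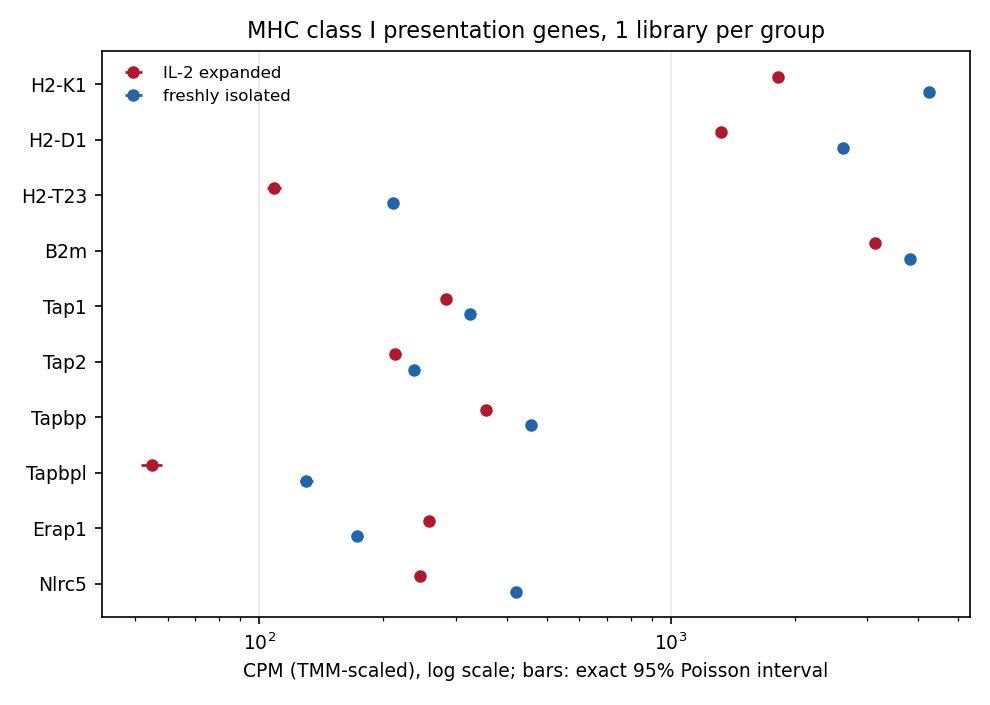
TMM-scaled CPM of the 10 class I presentation genes on a log axis, with IL-2 expanded cells in red, freshly isolated cells in blue and exact 95% counting intervals. H2-K1 lies at 1826 CPM in expanded and 4247 CPM in fresh cells, whereas Tap1 lies at 284 and 325 CPM in expanded and fresh cells.

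H2-K1 and H2-D1 encode the classical heavy chains that present peptides to CD8 T cells. H2-K1, at chr17:33996012-34000333 on the minus strand of GRCm38, had 38377 counts (1826 CPM) in expanded cells and 91414 counts (4247 CPM) in fresh cells. It was 2.33-fold lower in expanded cells (95% interval 2.30 to 2.35). By CPM it ranked 36 among all genes in expanded cells and 4 in fresh cells, so it stayed among the abundant transcripts of both libraries. H2-D1, at chr17:35263094-35267497 on the plus strand, had 27936 counts (1329 CPM) in expanded cells and 56371 counts (2619 CPM) in fresh cells. Its fold of 1.97 lower (1.94 to 1.999) lay just under the 2-fold line, while H2-K1 lay just past it. The H2-K1 to H2-D1 count ratio was 1.37 in expanded and 1.62 in fresh cells, so H2-K1 was lower relative to H2-D1 by a factor of 0.847 (0.831 to 0.863), a value that no scaling can move. H2-T23 encodes the heavy chain of Qa-1, a nonclassical molecule that shows leader peptides of other class I chains to the CD94/NKG2 receptors. Listed at chr17:36029977-36111426 on the minus strand, it had 2283 counts (109 CPM) in expanded cells and 4555 counts (212 CPM) in fresh cells, 1.95-fold lower (1.85 to 2.05). The 3 heavy chains therefore differed by similar folds although their CPM span more than an order of magnitude.

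B2m encodes β2-microglobulin, the light chain shared by all these heavy chains. At chr2:122147687-122153082, it had 66091 counts (3144 CPM) in expanded cells and 82037 counts (3811 CPM) in fresh cells, 1.21-fold lower (1.20 to 1.22). B2m was thus close to level while its partners were not. Per B2m count, the 3 heavy chains together gave 1.04 counts in expanded and 1.86 in fresh cells, a ratio of 0.559 (0.551 to 0.567). For H2-K1 alone the ratio to B2m was 0.581 in expanded and 1.11 in fresh cells, and that of H2-D1 was 0.423 in expanded and 0.687 in fresh cells. Whatever the scaling, the balance of heavy to light chain transcripts was lower in the expanded library. Per length of transcript, on the TPM scale (counts per kilobase scaled to the same sum in each library), B2m stood at 8454 TPM in expanded cells and 13507 TPM in fresh cells, and by TPM it ranked 7 of all genes in expanded cells and 1 in fresh cells. H2-K1 followed at 1824 TPM in expanded and 5593 TPM in fresh cells, and H2-D1 at 1634 TPM in expanded and 4243 TPM in fresh cells. The other genes of the 10 ranged between 60.9 TPM (Tapbpl) and 298 TPM (Tapbp) in expanded cells, and between 99.4 TPM (Erap1) and 506 TPM (Tapbp) in fresh cells. Per kilobase, B2m exceeded H2-K1 by 4.63 in expanded and 2.41 in fresh cells with the deposited lengths. With the gene span as the length these ratios were 1.38 in expanded and 0.719 in fresh cells, so the order in fresh cells turns with the length used.

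Tap1, Tap2 and Tapbp kept closer to B2m than the heavy chains did, with ratios to B2m that differed between expanded and fresh cells by factors of 1.06, 1.09 and 0.941. Tap1 and Tap2 encode the subunits of the peptide transporter. Tap1, at chr17:34187556-34197225, had 5978 counts (284 CPM) in expanded cells and 6991 counts (325 CPM) in fresh cells, 1.14-fold lower (1.10 to 1.18). Tap2, at chr17:34204479-34216321, had 4504 counts (214 CPM) in expanded cells and 5123 counts (238 CPM) in fresh cells, 1.11-fold lower (1.07 to 1.16). The Tap1 to Tap2 ratio was 1.33 in expanded and 1.36 in fresh cells, and its change of 0.973 (0.923 to 1.03) lay within counting error. Tapbp encodes tapasin, which bridges the transporter and the empty heavy chain. At chr17:33919478-33929290, it had 7485 counts (356 CPM) in expanded cells and 9876 counts (459 CPM) in fresh cells, 1.29-fold lower (1.25 to 1.33).

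Tapbpl encodes TAPBPR, a tapasin relative that edits peptides outside the transporter complex, and it was lower in expanded cells by about as much as H2-K1, whose interval lies within its own. At chr6:125224212-125231860, it had 1151 counts (54.8 CPM) in expanded cells and 2801 counts (130.1 CPM) in fresh cells, 2.38-fold lower (2.22 to 2.55). The ratio of Tapbpl to Tapbp counts was 0.154 in expanded and 0.284 in fresh cells, with a change of 0.542 (0.503 to 0.584). The Tapbpl span lies on the minus strand inside that of Vamp1 on the plus strand, a gene of vesicle fusion with 78 counts in expanded and 1320 counts in fresh cells. Whether counting used strand is not given in the sources used here, so reads of Tapbpl and Vamp1 could not be told apart with certainty.

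Erap1 encodes the aminopeptidase of the endoplasmic reticulum that trims peptides to the length class I binds. At chr13:74639872-74691875, it had 5444 counts (259 CPM) in expanded cells and 3723 counts (173 CPM) in fresh cells, a ratio of 1.497 (1.44 to 1.56) that stayed under 2-fold. Relative to B2m its counts were higher in expanded cells by a factor of 1.82 (1.74 to 1.89). Nlrc5, at chr8:94472763-94527272, encodes the transactivator that acts at class I promoters. It had 5167 counts (246 CPM) in expanded cells and 9037 counts (419.8 CPM) in fresh cells, 1.71-fold lower (1.65 to 1.77). Its fold lay between those of the heavy chains and those of the transporter. Summed over Tap1, Tap2, Tapbp, Tapbpl and Erap1, counts were 24562 in expanded and 28514 in fresh cells, 1.13-fold lower (1.11 to 1.15), against 2.17-fold lower (2.15 to 2.19) for the 3 heavy chains. The 10 genes together took 0.740% of all counts in expanded cells and 1.33% in fresh cells.

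**Figure D2:**
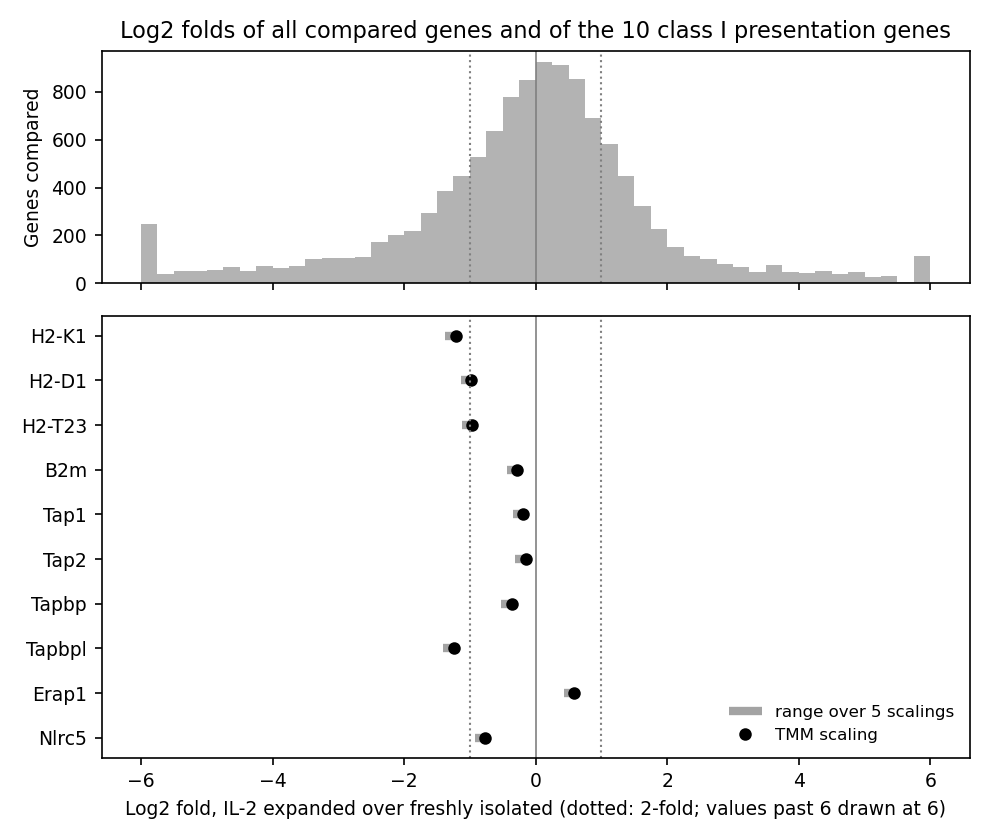
Distribution of log2 folds, expanded over freshly isolated, over the 11715 compared genes, with values past 6 drawn at 6, and below it the 10 class I presentation genes as points under TMM with grey bars for the range over 5 scalings. Of these, 9 lie left of 0, with Tapbpl at -1.25 and H2-K1 at -1.22, and Erap1 lies right of 0 at 0.58.

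Class I heavy chain genes are near copies of each other, which bears on how reads could be assigned. Aligned over their coding sequences (GENCODE M21, GRCm38), H2-K1 was identical to H2-D1 at 91.39% of 1080 bases, to H2-Q4 at 90.11%, to H2-Q7 at 88.15% and to H2-T23 at 81.14%. The 60-base stretch with the fewest differences, in exon 4 of H2-K1 at chr17:33997374-33997433 (minus strand), shows why a short read may fit several loci. H2-D1, H2-Q7 and H2-T23 have the same letters as H2-K1 there, and H2-Q4 differs at the base in capitals.
H2-K1: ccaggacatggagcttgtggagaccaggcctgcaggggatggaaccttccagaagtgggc
H2-Q4: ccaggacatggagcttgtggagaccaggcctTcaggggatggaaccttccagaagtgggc
The stretch with the most differences lies in exon 3, which encodes part of the peptide-binding groove, at chr17:33999348-33999407 (minus strand). It is shown because reads from it can tell the loci apart, and capitals mark bases that differ from H2-K1. H2-D1 differs at 14 bases, H2-Q4 at 12, H2-Q7 at 13 and H2-T23 at 24.
H2-K1: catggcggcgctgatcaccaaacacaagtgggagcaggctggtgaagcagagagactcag
H2-D1: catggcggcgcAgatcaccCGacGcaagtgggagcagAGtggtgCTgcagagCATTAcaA
H2-Q4: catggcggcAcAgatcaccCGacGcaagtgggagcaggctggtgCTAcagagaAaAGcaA
H2-Q7: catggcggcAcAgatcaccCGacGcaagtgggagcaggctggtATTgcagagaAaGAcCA
H2-T23: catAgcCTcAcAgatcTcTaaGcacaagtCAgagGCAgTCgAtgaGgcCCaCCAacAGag

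Over whole transcripts, 8.79% of the 50-base windows of H2-K1 had an exact copy in a transcript of another gene, against 14.3% for H2-D1 and 29.8% for H2-T23. With 100-base windows the shares were 0% for H2-K1, 4.64% for H2-D1 and 7.28% for H2-T23. H2-Q4 and H2-Q7 shared more, at 39.2% and 40.2% of 50-base windows, and B2m and Nlrc5 shared none. Of the genes that are no heavy chain, Tapbp shared 21.025% of its 50-base windows and Tap2 12.6%. Most of these were shared with Gm19412 for Tapbp (18.99% of windows) and with Gm15821 for Tap2 (9.90%). Neither partner has a row in the count table under that name. For Erap1, 14.0% of 50-base windows lay in shared sequence with Cast, its neighbour on the other strand, which had 4434 counts in expanded and 5469 counts in fresh cells. The sources used here give neither the read length nor the handling of reads with several matches, so single heavy chain values carry an uncertainty that the counting intervals leave out. The deposited spans overlap as well. H2-D1 lies inside the span listed for Ddx39b, an RNA helicase gene, and H2-T23 is listed over 81450 bases, against 2725 bases in RefSeq (GRCm38.p6). The listed span takes in H2-T22 and part of H2-T-ps.

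**Figure D3:**
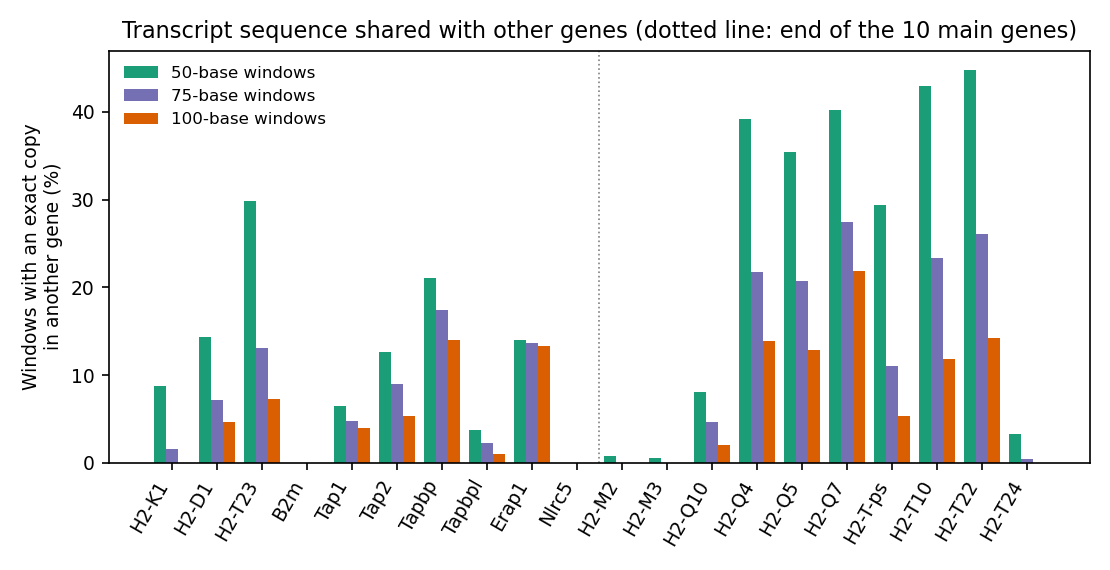
Share of transcript windows of 50, 75 and 100 bases, in percent, with an exact copy in a transcript of another gene, for class I presentation genes and other heavy chains. H2-Q7 reaches 40.2% at 50 bases, H2-K1 8.79%, and B2m and Nlrc5 lie at 0.

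A sum over the 31 heavy chain loci of the table does not depend on how counted reads were divided among these loci, but reads shared with genes outside them, or not counted for having several matches, can still move it. It was 76104 counts (3620 CPM) in expanded cells and 186530 counts (8666 CPM) in fresh cells, 2.39-fold lower (2.37 to 2.41). Loci outside H2-K1, H2-D1 and H2-T23 were lower by more, with 7508 counts in expanded and 34190 counts in fresh cells, 4.45-fold lower (4.34 to 4.56). The 8 H2-Q loci of the table, a group of nonclassical genes and pseudogenes, gave 6263 counts in expanded and 31081 counts in fresh cells, 4.85-fold lower (4.72 to 4.98). Their share of all heavy chain counts was 8.23% in expanded and 16.7% in fresh cells. H2-K1 and H2-D1 together held 87.1% of heavy chain counts in expanded cells and 79.2% in fresh cells, so the classical chains made up more of the class I transcripts in expanded cells.

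Single loci did not all differ the same way. H2-Q4 had 1789 counts (85.1 CPM) in expanded and 13307 counts (618 CPM) in fresh cells, 7.26-fold lower (6.91 to 7.64). H2-Q7 had 3544 counts (169 CPM) in expanded and 15863 counts (737 CPM) in fresh cells, 4.37-fold lower (4.21 to 4.53). Both share much of their sequence with other loci. H2-Q5, a pseudogene in RefSeq, was 8.43-fold lower, H2-T24 4.39-fold, H2-T10 3.76-fold and H2-M3, which presents formylated peptides, 2.15-fold. H2-Q8 had 12 counts in expanded and 31 counts in fresh cells, and H2-T-ps had 192 in expanded and 251 in fresh cells. H2-M2 was at 0 counts in expanded cells and 81 counts in fresh cells, at least 26.4-fold lower against a floor of 3 counts in the expanded library. H2-Q10 went the other way, with 726 counts (34.5 CPM) in expanded and 234 counts (10.9 CPM) in fresh cells, 3.18-fold higher (2.74 to 3.70). H2-T22 had 116 counts in expanded and 62 counts in fresh cells, a ratio of 1.92 (1.40 to 2.65). H2-T22 and H2-T10 also share much sequence, with copies of 44.7% and 42.9% of their 50-base windows in other genes.

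**Figure D4:**
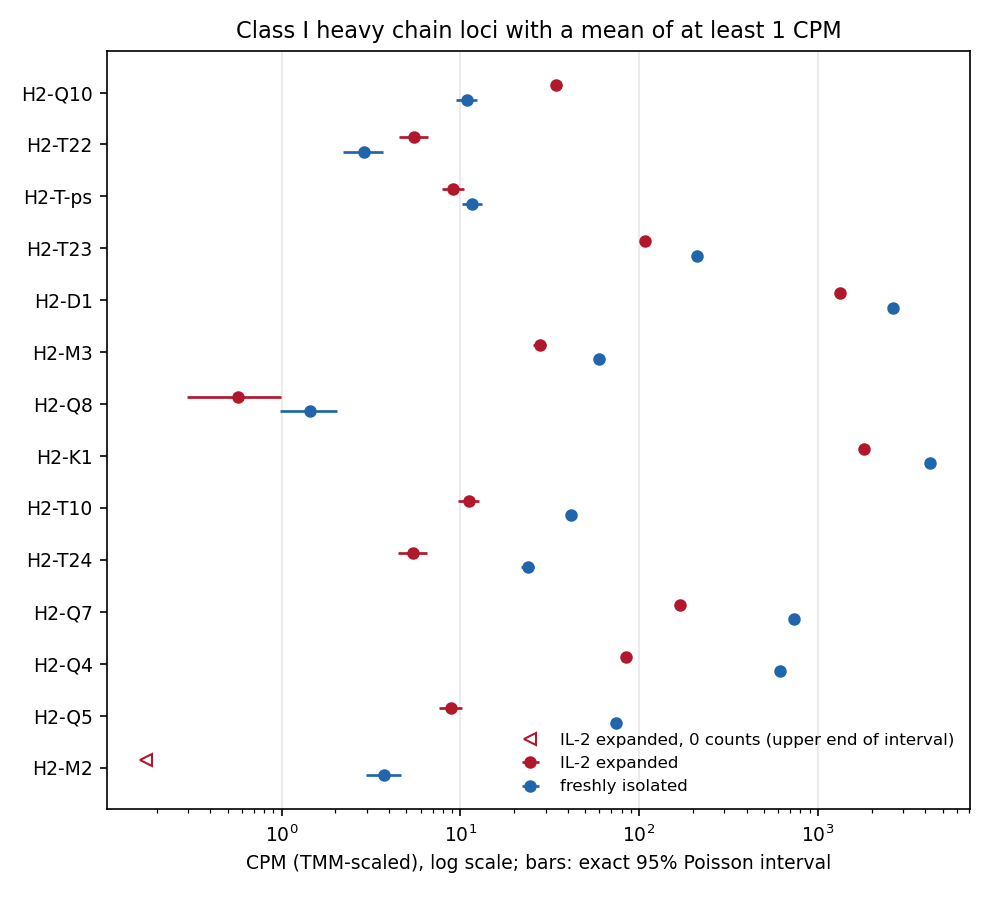
CPM of each class I heavy chain locus with a mean of at least 1 CPM, on a log axis, with expanded cells in red, fresh cells in blue and exact 95% counting intervals. H2-Q4, at 85.1 CPM in expanded and 618 CPM in fresh cells, is far lower in expanded cells, and H2-Q10 is higher in them.

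The list of other class I and class I-like heavy chains holds the H2 loci just described other than H2-Q5 and H2-T-ps. Of its 14 compared genes 2 were higher and 10 lower in expanded cells. Over all compared genes 22.4% were higher and 25.0% lower. The list median log2 fold was -2.01, also with H2-M2 at its bound. Fcgrt, Hfe, H2-M2 and H2-Q8 were under 1 CPM in expanded cells and entered the comparison only through the fresh library. Their call as lower was therefore close to fixed. So was the call of Procr as higher, which was under 1 CPM in fresh cells. Among the class I-like genes, Fcgrt, the receptor that recycles antibodies, had 1 count in expanded and 406 counts in fresh cells. Hfe, which takes part in iron sensing, had 8 counts in expanded and 419 in fresh cells. Cd1d1, which presents lipids, had 60 counts in expanded and 904 counts in fresh cells. Macrophages and B cells also express these genes, and the marker sums of those cells were lower in the same library. The part of those cells in these differences was not tested. Mr1, which presents vitamin B metabolites, had 408 counts in expanded and 539 in fresh cells. Procr had 36 counts in expanded and 13 in fresh cells.

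Of 11 genes in the loading chaperone list 6 were higher in expanded cells, 1 was lower and 4 stood between the 2-fold lines. The median log2 fold was 1.08, and not every listed gene is a loading chaperone. Over all compared genes 22.4% were higher and 25.0% lower. Calr, which encodes calreticulin and holds the heavy chain in the loading complex, stood at 2816 CPM in expanded and 703 CPM in fresh cells, 4.01-fold higher. Canx, the membrane chaperone calnexin that folds new heavy chains, was 3.94-fold higher, and Pdia3, the disulfide isomerase bound to tapasin, 3.50-fold higher. As background, these chaperones serve many other glycoproteins. The other higher genes of the list were Sec61a1 (2.45-fold), Tmed2 (2.34-fold) and Uggt1 (2.12-fold), of which Sec61a1 and Tmed2 are not loading chaperones. Ugt1a7c, in the same list but encoding a glucuronosyltransferase and not a chaperone, was at 1.19 CPM in expanded and 7.20 CPM in fresh cells. Ganab and Hspa5 had ratios of 1.19 and 1.27.

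Of 10 proteasome genes 5 were higher in expanded cells and 0 lower, against 22.4% higher and 25.0% lower over all compared genes, with a median log2 fold of 0.83. The constitutive catalytic subunits Psmb5, Psmb7 and Psmb6 were 3.60-fold, 2.80-fold and 2.55-fold higher, as was the assembly factor Pomp at 2.80-fold. The immunoproteasome subunits stayed under 2-fold, with Psmb8 at 416 CPM in expanded and 277 CPM in fresh cells, Psmb9 at 93.6 CPM in expanded and 75.1 CPM in fresh cells, and Psmb10 at 97.2 CPM in expanded and 106 CPM in fresh cells. Psme1, a subunit of the inducible activator, stood at 255 CPM in expanded and 296 CPM in fresh cells. Of 6 cytosolic and trimming peptidases 3 were higher and 0 lower, namely Thop1 (6.55-fold), Lap3 (4.70-fold) and Blmh (2.51-fold), and Npepps, Lnpep and Tpp2 stood between the lines, with a list median of 1.05.

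Of 24 genes that take part in the control of class I transcription 12 were lower in expanded cells, against 25.0% of all compared genes, and 1 was higher, against 22.4%, with a median log2 fold of -0.99. Ifngr2, a chain of the interferon gamma receptor, stood at 2.24 CPM in expanded and 70.9 CPM in fresh cells, 31.7-fold lower. Irf1, an interferon-induced activator of class I genes, stood at 97.9 CPM in expanded and 678 CPM in fresh cells, 6.92-fold lower. Ciita, the class II counterpart of Nlrc5, stood at 0.714 CPM in expanded and 10.7 CPM in fresh cells. Under 1 CPM in expanded cells, it entered the comparison only through the fresh library. Ciita is typical of B cells and dendritic cells, whose marker sums were also lower in the expanded library. The part of those cells in its difference was not tested. Irf8 was the exception at 382 CPM in expanded and 45.8 CPM in fresh cells, 8.36-fold higher. Nfkb1 and Atf1 had ratios of 1.57 and 1.86.

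The last list holds receptors for class I and class I-like molecules and ligands of such receptors. Of its 15 compared genes 4 were higher, a share near the 22.4% over all compared genes. Lower were 10, against 25.0% over all compared genes. The median log2 fold was -3.003, also with Pirb at its bound of at least 163-fold lower. Klrc2, Klrc3, Klra1, Klra3, Cd8b1 and Pirb were under 1 CPM in expanded cells and entered the comparison only through the fresh library. Their call as lower was therefore close to fixed. Cd8a was under 1 CPM in fresh cells and entered only through the expanded library. Klrc1 encodes NKG2A, which binds Qa-1, the product of H2-T23, together with the CD94 chain of Klrd1. Klrc1 stood at 14.1 CPM in expanded and 189.6 CPM in fresh cells, and Klrd1 at 102 CPM in expanded and 216 CPM in fresh cells, so both receptor chains stood lower in expanded cells, as H2-T23 did by 1.95-fold. Klrc2 had 8 counts in expanded and 930 in fresh cells, and Klra1 had 2 in expanded and 118 in fresh cells. Pirb, a receptor also carried by B cells and macrophages, was at 0 counts in expanded and 502 counts in fresh cells. Ulbp1, a ligand of the NKG2D receptor, was 13.4-fold higher, Klra5 11.7-fold higher and Cd8a, whose product binds class I as a co-receptor, 9.83-fold higher at 9.13 CPM in expanded and 0.929 CPM in fresh cells. Its partner chain Cd8b1 was 11.04-fold lower, with 13 counts in expanded and 147 counts in fresh cells.

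**Figure D5:**
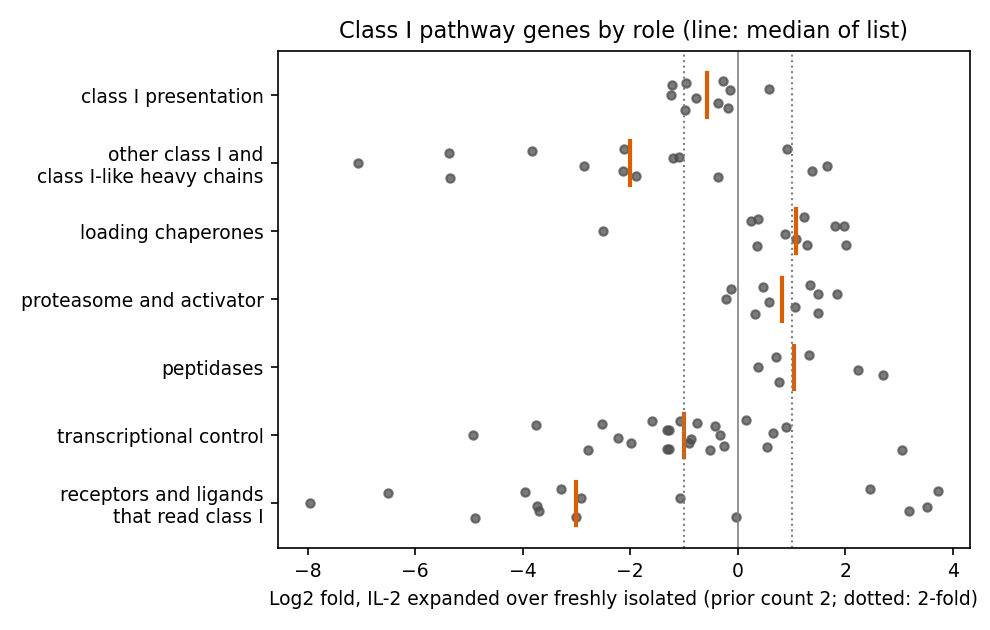
Log2 folds, expanded over freshly isolated, of each compared gene in the class I presentation genes and in 6 related lists, with the list medians. The medians are -0.57 for the class I presentation genes, 1.08 for the loading chaperone list and -2.01 for the other class I and class I-like heavy chains.

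Promoter sequences are shown for H2-K1 and H2-D1, which were lower, B2m, which was nearly level, and Erap1, which had more counts in expanded cells. RefSeq windows (GRCm38.p6) from 250 bases before to 50 bases after the start were found for 7 of the 10 genes, and the windows for Tap2, Tapbpl and Nlrc5 are not shown. The printed stretches run from 180 bases before the start to the 10th base of the transcript, 5′ to 3′ on the gene's strand. They lie at chr17:34000324-34000513 for H2-K1, chr17:35262914-35263103 for H2-D1, chr2:122147507-122147696 for B2m and chr13:74639673-74639862 for Erap1. Capitals mark exact matches to fixed letter patterns on either strand. These are GAAANNGAAA for the interferon-stimulated response element, GGGNNTTCC for the kappa B site and TGACG for the core of a cyclic AMP response element. Such sites also occur with other letters or lengths, so lower case does not mean that a site is absent.
H2-K1: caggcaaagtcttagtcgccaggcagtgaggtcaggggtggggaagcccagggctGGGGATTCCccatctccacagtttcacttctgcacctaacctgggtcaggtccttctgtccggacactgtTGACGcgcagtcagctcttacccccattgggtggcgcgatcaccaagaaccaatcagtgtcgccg
H2-D1: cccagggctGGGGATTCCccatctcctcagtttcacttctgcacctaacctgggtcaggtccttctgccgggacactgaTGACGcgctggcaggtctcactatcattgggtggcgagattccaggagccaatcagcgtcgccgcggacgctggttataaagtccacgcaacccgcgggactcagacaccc
B2m: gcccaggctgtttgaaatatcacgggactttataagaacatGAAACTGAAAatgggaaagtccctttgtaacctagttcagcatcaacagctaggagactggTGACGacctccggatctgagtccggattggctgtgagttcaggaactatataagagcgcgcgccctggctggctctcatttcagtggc
Erap1: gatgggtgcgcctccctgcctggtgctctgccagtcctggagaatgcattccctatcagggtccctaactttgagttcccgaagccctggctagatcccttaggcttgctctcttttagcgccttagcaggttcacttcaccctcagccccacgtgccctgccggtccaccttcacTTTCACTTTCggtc
H2-K1 and H2-D1 both hold 1 kappa B match, GGGGATTCC, followed by 1 TGACG match and 2 CCAAT matches, and neither holds GAAANNGAAA in its window. B2m holds GAAACTGAAA from base -139 to -130, and Erap1 holds the reverse form TTTCACTTTC from base -4 to 6. Over the whole 300-base windows, exact GAAANNGAAA was found in 3 of the 7 genes, GGGNNTTCC in 2, TGACG in 4 and CCAAT in 6. Of 32544 mouse promoters of the same length, 3.45% hold GAAANNGAAA, 5.85% GGGNNTTCC, 20.9% TGACG and 37.4% CCAAT. The matches describe letters in these windows and were not set against the folds by a test.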

How the data were processed

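RNA-seq of total RNA gave 1 library of IL-2 expanded and 1 of freshly isolated γδ T cells. The authors deposited 1 table of raw whole-number read counts per gene, with gene spans and a gene length in kilobases. The submitters' processing notes name HTSeq 0.6.0, STAR 2.6.0, and also bcl2fastq 2.18.0.12 and edgeR 3.28.1, on mouse build GRCm38 (also called mm10). Settings, annotation, read length and use of strand are not given in the sources used here. HTSeq in its usual mode leaves out reads with several matches and reads that touch overlapping genes, which would lower the counts of near-identical heavy chain genes.

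Columns were matched to libraries by title. Libraries were scaled by TMM (edgeR 4.0.16, R 4.3.3), with factors of 0.947 for the expanded and 1.06 for the fresh library. Log2 folds used a prior count of 2 and printed folds are plain CPM ratios. Compared genes had 1 CPM or more on average over both libraries. Intervals are exact 95% Clopper-Pearson intervals of the conditional binomial, Poisson intervals for CPM and Woolf intervals for ratios of ratios. Because PCR copies of a molecule cannot be recognised here, intervals and the floor of 3 counts cover counting error only. TPM used the deposited lengths and was read within a library. DESeq2 1.42.0 gave alternative size factors. Coding sequences were aligned with mafft 7.526, and transcript windows of 50, 75 and 100 bases were searched for exact copies in all GENCODE M21 transcripts. The computation of folds was tested on simulated data.

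The genes and lists were chosen with earlier results of these data known. Named are all 10 class I presentation genes, every H2-Q, H2-T and H2-M locus with a mean of at least 1 CPM, and from each other list the 3 highest and the 3 lowest log2 folds. Psmb6, Psmb8, Cd1d1, Mr1, Klrc1, Klrc3, Klra3, Klrd1, Cd8b1, Sec61a1, Tmed2, Uggt1 and the named marker genes were added after their values were seen. Alternatives were other scalings, prior counts of 0.5 and 5, other filters, a 4-fold line and other gene lengths. With 1 library per group, no p-value was computed.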

Additional observations from a re-analysis of the deposited data

How the results depend on the processing

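Scaling sets how many class I genes pass the 2-fold line. At least 2-fold lower were 2 of these genes under TMM, against 25.0% of all compared genes. With total count 4 were lower, against 27.8%, and with upper quartile 4, against 26.1%. With the total without the 50 most abundant genes 4 were lower, against 26.7%. With DESeq2 size factors 3 were lower, against 25.3%. At a 4-fold line under TMM 0 were lower, against 13.5%. H2-D1 lies so near the line that its log2 fold was -0.98 under TMM and -1.14 with total count, and that of H2-T23 was -0.96 and -1.12. The summed log2 fold of the 31 heavy chain loci was -1.26 under TMM, -1.42 with total count, -1.28 with DESeq2 size factors, -1.33 with upper quartile and -1.34 without the 50 most abundant genes, and -1.12 for the 3 main heavy chains alone, since fewer loci were summed. With a mean of at least 5 CPM fewer genes were compared, and the share over all genes was not computed. Of the other class I and class I-like genes 1 of 10 was higher, against 2 of 14 in the main setting. In the loading chaperone list 0 of 10 were lower, against 1 of 11. Among the receptors and ligands 6 of 11 were lower, against 10 of 15. B2m over H2-K1 per kilobase was 4.63 in expanded and 2.41 in fresh cells, 3.24 in expanded and 1.69 in fresh cells with the longest coding transcript, and 1.38 in expanded and 0.719 in fresh cells with the gene span, as the length is the divisor. Of the alternative values for these comparisons, 109 stayed within 1.5 times (counts of genes) or within the counting interval, and 16, all given above, did not. Over 21 genes and 6 alternatives of scaling and prior count, 0 of 126 log2 folds changed sign. No paired analysis was possible because each group has 1 library and no replicate number, and for the same reason no replicate could be left out. Depth limits the low loci, such as H2-Q8 with 12 counts in expanded and 31 in fresh cells.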
